A study of Mus musculus with 8 samples.

Results

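Eosinophilic esophagitis is a chronic allergic inflammation of the esophagus whose inherited risk maps to a small number of loci in the human genome. The 9 genes described here, Tslp, Crlf2, Capn14, Lrrc32, Emsy, Clec16a, Ankrd27, Xkr6 and Synpo, are mouse counterparts of genes at such human loci, taken from a list of names. Of the 9 genes, 8 were found among the 49315 genes of the count table, and all 8 passed the filter on low counts that left 16760 genes for testing. For Capn14 no gene of that name was matched in the mouse annotation, and it has no value here. Whole esophagi came from 4 EoE33 mice, transgenic animals that overproduce the cytokine IL-33 in this organ, and from 4 wild type littermates. All 8 mice were 8 weeks old, male and of the C57BL/6J strain, and they shared no further allele or treatment in the labels. The labels do not name the promoter of the transgene or the number of founder lines, and counts per gene do not separate transgene from endogenous Il33 transcripts. The comparison asks which of the risk genes differ in transcript level between the genotypes. The labels do not say which mice shared a litter or cage.

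The genes belong to different parts of the tissue. TSLP is an alarmin cytokine of barrier epithelium that binds CRLF2 together with the IL-7 receptor alpha chain and signals through JAK1, JAK2 and STAT5 in dendritic cells, innate lymphoid cells and other leukocytes. In human esophageal epithelium, CAPN14 is a calcium-dependent cysteine protease that IL-13 induces. LRRC32, also called GARP, holds latent TGF-beta on regulatory T cells and platelets. EMSY is a chromatin protein that binds BRCA2, CLEC16A acts in endolysosomal sorting and mitophagy, ANKRD27 (VARP) guides endosomal traffic through RAB32, RAB38 and VAMP7, XKR6 belongs to the XK-related membrane proteins, and synaptopodin (Synpo) binds alpha-actinin on actin bundles. A risk locus is often named after a nearby gene, so a name on the list does not say which gene of the locus carries the risk.

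Total counts lay between 17.73 and 24.07 in units of 1e6 per library. Il33, the check of the labels, was at 370.8 ± 16.1 CPM (counts per 1e6 counts, with TMM-scaled library sizes) in EoE33 and 128.7 ± 27 CPM in wild type (SD, n = 4 each), without overlap. Summed basal keratinocyte markers lay between 16127 and 19858 CPM in EoE33 and between 3496 and 5037 CPM in wild type, and suprabasal ones between 22396 and 44877 CPM in EoE33 and between 62705 and 104566 CPM in wild type, with none at 0. Summed eosinophil markers lay between 8.53 and 13.6 CPM in EoE33 and between 0.18 and 1.35 CPM in wild type. Wild type replicate 3 held airway transcripts and wild type replicate 1 liver transcripts: the summed club cell markers spanned 0.33 to 1.4 CPM in EoE33 and 5.69 to 431.4 CPM in wild type, and the summed liver markers 0.41 to 3.71 CPM in EoE33 and 4.36 to 140.1 CPM in wild type. Results for the risk genes without those 2 libraries are given with the first count below. In bulk tissue, fewer cells of a type and less RNA per cell cannot be told apart.

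Of the 8 tested risk genes, 3 rose in EoE33 (Crlf2, Xkr6 and Lrrc32), 3 fell (Ankrd27, Synpo and Clec16a) and 2 did not pass (Tslp and Emsy), at an adjusted p under 0.05 in edgeR's quasi-likelihood test. Across all 16760 tested genes 63.4% passed, 31.3% higher and 32.1% lower, so 6 of 8 is near the background. The groups did not overlap in 6 of the 8, the genes that passed, beside 59.5% of all tested genes. In 3 of the 8 all EoE33 libraries were above all wild type ones, beside 29.6% of tested genes, and in 3 of the 8 all were below, beside 29.9%. These shares too are near the background. The changes were moderate: the median absolute log2 fold change was 0.66 among the 8 risk genes and 0.52 among all tested genes. Of the 8 risk genes 1, Crlf2, reached an absolute value of 1, beside 28.3% of all tested genes. Without wild type replicates 1 and 3 the same 6 genes passed in the same directions, with log2 fold changes of 1.16 for Crlf2, 1.02 for Xkr6, 0.58 for Lrrc32, −0.82 for Ankrd27, −0.79 for Synpo and −0.47 for Clec16a. The highest of their adjusted p-values in that edgeR fit was 0.0456, for Lrrc32.

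**Figure D1:**
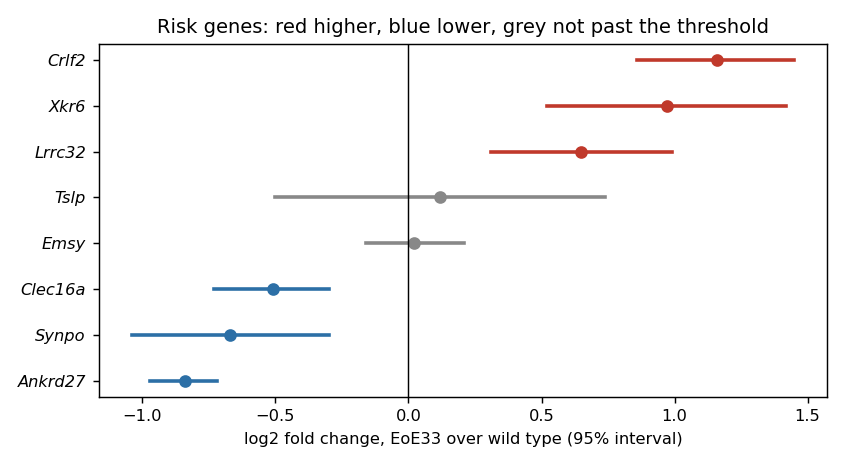
Log2 fold change, EoE33 over wild type, of the 8 tested risk genes, with points for the estimate and lines for the 95% interval of the edgeR fit. Crlf2 at 1.16, Xkr6 at 0.97 and Lrrc32 at 0.65 lie above 0, Clec16a at −0.51, Synpo at −0.67 and Ankrd27 at −0.84 lie below it, and the intervals of Tslp and Emsy span 0.

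Of the ligand and its receptor chain, Crlf2 rose and Tslp did not pass. Tslp (ENSMUSG00000024379, chromosome 18 from 32815383 to 32819797 in GRCm38) had 26, 15, 18 and 15 counts in the EoE33 libraries and 15, 18, 18 and 27 counts in the wild type libraries. Those counts correspond to 0.91 ± 0.227 CPM in EoE33 and 0.835 ± 0.223 CPM in wild type (SD, n = 4 each). The groups overlapped almost fully, with the highest value of each group standing over 3 close ones. Tslp did not pass (log2 fold change 0.12, 95% interval −0.5 to 0.74, edgeR adjusted p = 0.713), which leaves room for changes between 0.709-fold and 1.67-fold. At 74 counts over the EoE33 libraries and 78 over the wild type libraries, a smaller difference was not detectable at this depth.

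Crlf2, which encodes the chain of the TSLP receptor that gives it its specificity, showed the largest change among the risk genes. The gene (ENSMUSG00000033467) spans positions 109554709 to 109558993 of chromosome 5 in GRCm38. CPM values were 12.4, 13.5, 15.6 and 13 in the EoE33 libraries and 5.81, 5.04, 6.55 and 7.06 in the wild type libraries. Every EoE33 value lay above every wild type value, and the gap between the groups was wider than the range of either. Crlf2 was 2.23-fold higher (log2 fold change 1.16, standard error 0.13, 95% interval 0.86 to 1.45, edgeR adjusted p = 6.17e-05). An exact permutation test on log2 CPM, two-sided, reached 0.0286 for each of the 6 genes that passed. With 70 orderings of 4 and 4 libraries no smaller p is possible.

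**Figure D2:**
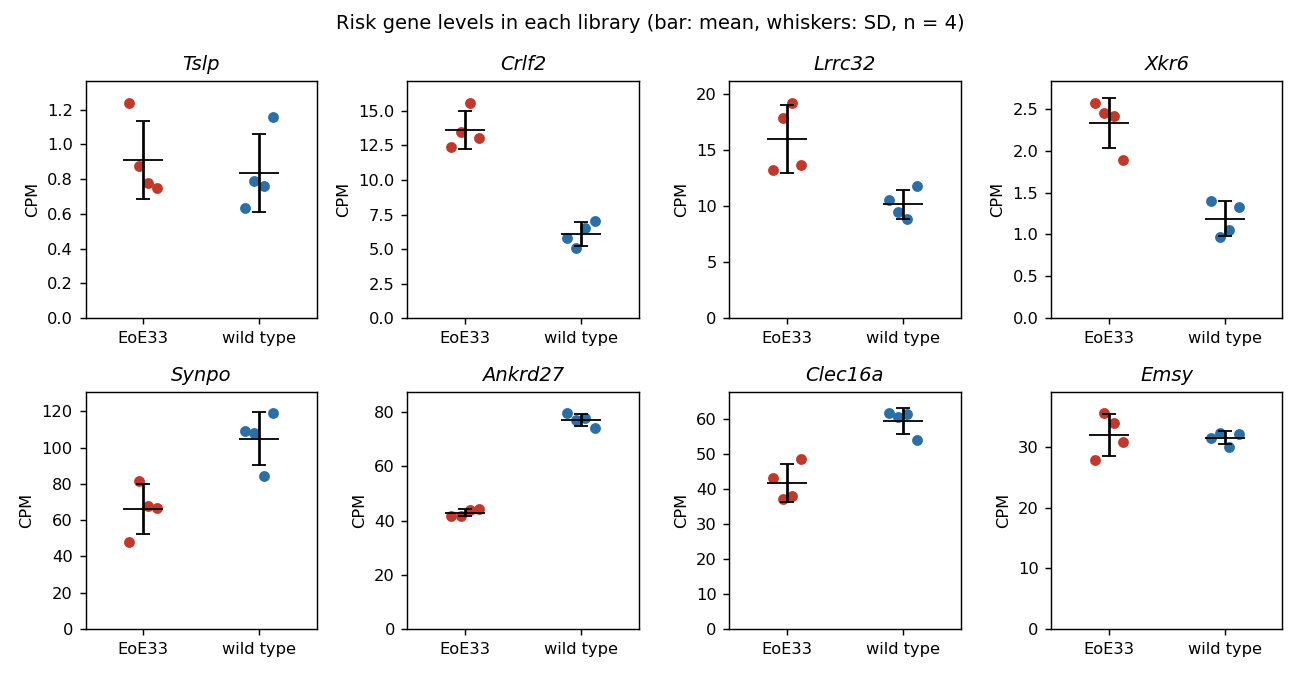
Level in CPM (linear axes from 0) of each risk gene in the 4 EoE33 libraries (red, left) and the 4 wild type libraries (blue, right), with the mean and SD. Crlf2, Lrrc32 and Xkr6 are higher in all EoE33 libraries, Synpo, Ankrd27 and Clec16a are lower, and Tslp and Emsy overlap.

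The sequence just upstream of Crlf2 is shown because this gene had the largest rise. It is chr5:109559129-109559243 on the minus strand in GRCm38.p6, from RefSeq, 5′ to 3′, with GC boxes (GGGCGG, or CCGCCC when read on the other strand) in capitals.
Crlf2: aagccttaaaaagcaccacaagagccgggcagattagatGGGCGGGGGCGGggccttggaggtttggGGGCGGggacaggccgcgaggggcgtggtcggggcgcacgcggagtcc
The stretch of 115 bases holds 3 GC boxes, the first pair of them back to back, and 35.7% of the 32851 RefSeq promoter windows of 300 bases hold at least 1. The motif that STAT factors bind, TTC and GAA with 3 or 4 bases between them, reads alike on both strands and was in 14.6% of the windows. It had 0 matches in the windows of Crlf2, Emsy, Clec16a and Ankrd27, which describes these letters and says nothing of the binding of a factor. Tslp, Lrrc32, Xkr6 and Synpo have no window in that set and were not searched.

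The second receptor chain and a pair of pathway inhibitors also rose. Il7r, which encodes the partner chain of CRLF2, was at 8.73, 9.06, 7.54 and 9.33 CPM in EoE33 and 1.36, 1.27, 1.69 and 3.08 CPM in wild type, a 4.67-fold rise (edgeR adjusted p = 9.36e-05). Of the 21 tested genes of the TSLP receptor and signalling list, which holds neither Tslp nor Crlf2, 13 rose, 3 fell and 5 did not pass, with a median log2 fold change of 0.67 beside −0.01 over all tested genes. Among all tested genes 31.3% were called higher and 32.1% lower. Socs1 and Socs3, feedback inhibitors of JAK kinases, rose 7.97-fold and 5.23-fold. Ccl22, a chemokine that TSLP-activated dendritic cells make, rose 8.23-fold, and the kinase genes Jak1 and Jak2 rose 1.29-fold and 2.24-fold. The 3 that fell were Stat5a, Stat5b and Bcl2. Stat5b and Bcl2, an inhibitor of cell death, were 1.63-fold and 2.05-fold lower. Stat5a was 1.39-fold lower (edgeR adjusted p = 0.0204) and did not pass without wild type replicate 4 (log2 fold change −0.41, edgeR adjusted p = 0.0537). Stat5a also did not pass without wild type replicates 1 and 3 (0.0562). Many genes of the list are known to act in the signalling of other cytokines too.

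Beside Crlf2 and Il7r, summed dendritic cell and macrophage markers were higher in EoE33 without overlap, while summed T cell markers overlapped. Summed dendritic cell markers lay between 32.71 and 39.1 CPM in EoE33 and between 14.83 and 30.5 CPM in wild type, with 3 of 7 higher and 1 lower. Summed macrophage and monocyte markers lay between 269.9 and 375.4 CPM in EoE33 and between 116.8 and 191.9 CPM in wild type, with 5 of 5 higher. Summed T cell markers overlapped, at 7.19 to 11.29 CPM in EoE33 and 1.84 to 9.11 CPM in wild type. Of the 6 T cell markers 2 were higher and 0 lower. Among all tested genes 31.3% were called higher and 32.1% lower, so the rises in the dendritic cell and T cell lists are near the background. Wild type replicate 4 was the highest wild type library for each of these 3 lists, it stood apart from the rest of its group for T cell markers, and its Il7r level was the highest of its group. Without it the log2 fold change was 1.23 for Crlf2 and 2.58 for Il7r, and both still passed in edgeR. No marker of these 3 lists was at 0 counts over all libraries, and their part in the rise of Crlf2 was not tested.

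**Figure D3:**
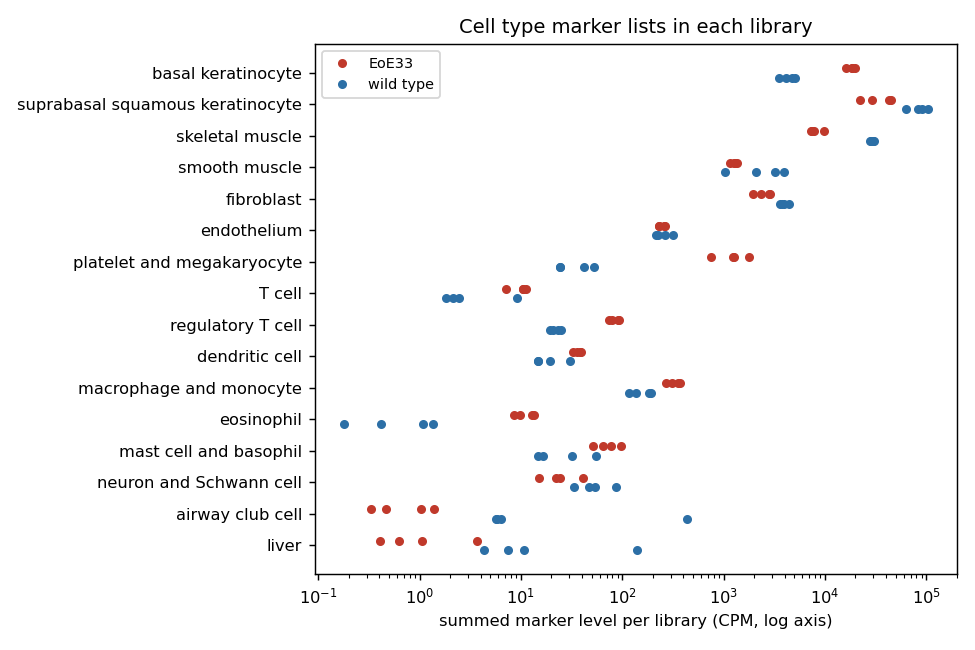
Summed level of each cell type marker list in each library (CPM, log axis), EoE33 in red above wild type in blue. Skeletal muscle markers lie between 7362 and 9895 CPM in EoE33 and between 27741 and 30175 CPM in wild type, while macrophage, dendritic cell and eosinophil lists lie higher in EoE33 without overlap.

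Capn14 could not be matched by name. In the human genome CAPN14 lies between EHD3 and GALNT14. In the mouse annotation Ehd3 (chromosome 17, 73804134 to 73832094) and Galnt14 (chromosome 17, 73493228 to 73710453) are separated by 93.7 kb that hold 0 annotated genes of any kind. Ehd3, an endosomal traffic gene named here for its position, did not pass, with 6.05 ± 0.62 CPM in EoE33 and 7.09 ± 0.96 CPM in wild type (SD, n = 4 each; log2 fold change −0.23, edgeR adjusted p = 0.171).

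Other calpains moved in both directions. Of 13 tested genes of the calpain and calpastatin list, 5 rose, 6 fell and 2 did not pass (median log2 fold change −0.31). The shares over all tested genes were 31.3% higher and 32.1% lower. Capn2, which encodes the large subunit of a ubiquitous calpain, was at 313.7 ± 10.1 CPM in EoE33 and 157 ± 11.2 CPM in wild type (SD, n = 4 each), a 2-fold rise. Capns1, the small subunit that partners it, rose 1.83-fold, and Capn1, another large subunit, did not pass (log2 fold change −0.16, edgeR adjusted p = 0.256). The other 3 that rose were Capn5, Capn7 and Cast, the last of which encodes the calpain inhibitor calpastatin. Capn3, the calpain of skeletal muscle, was 3.26-fold lower. Capn9 had 1 count over the EoE33 libraries and 116 over the wild type libraries, a count ratio of 0.0099 with an exact 95% interval from 0.000249 to 0.0563. That interval covers counting error only.

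Lrrc32 and Emsy adjoin each other in the mouse as in the human genome: Lrrc32 rose and Emsy did not pass, and the difference between their changes was not tested. Lrrc32 (ENSMUSG00000090958, chromosome 7 from 98489283 to 98502181 in GRCm38) was at 13.2, 17.8, 19.2 and 13.6 CPM in the EoE33 libraries and 10.6, 9.43, 8.87 and 11.8 CPM in the wild type libraries. The groups did not overlap, but the lowest EoE33 library stood close above the highest wild type library. It was 1.57-fold higher (log2 fold change 0.65, standard error 0.151, 95% interval 0.31 to 0.99, edgeR adjusted p = 0.00436). Emsy (ENSMUSG00000035401) lies 85 kb away, on the opposite strand, from 98587137 to 98656783. It was at 27.8, 35.6, 34 and 30.8 CPM in EoE33 and 31.5, 32.4, 30 and 32.2 CPM in wild type. The EoE33 libraries lay on both sides of the wild type ones, and Emsy did not pass (log2 fold change 0.02, 95% interval −0.16 to 0.21, edgeR adjusted p = 0.82). That interval leaves room for changes between 0.893-fold and 1.16-fold.

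The list around GARP holds genes that make, hold or release latent TGF-beta and some regulatory T cell genes. Of its 18 tested genes, 11 rose, 4 fell and 3 did not pass, beside 31.3% higher and 32.1% lower among all tested genes, with a median log2 fold change of 0.9. Tgfb1, the ligand that GARP holds, rose 2.2-fold, and Furin, the protease that cleaves its precursor, and Itgav, an integrin chain that releases it, rose 1.92-fold and 2.05-fold. The 4 that fell were Tgfb2, Tgfb3, Ltbp3 and Ltbp4, which encode the other TGF-beta ligands and a pair of latent TGF-beta binding proteins. Foxp3 and Ikzf2, transcription factor genes of regulatory T cells that the list also holds, rose 2.17-fold and 4.11-fold. Foxp3 was at 2.21 ± 0.43 CPM and Ikzf2 at 74.9 ± 8.14 CPM in EoE33, and they were at 1.02 ± 0.2 CPM and 18.2 ± 2.56 CPM in wild type (SD, n = 4 each).

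Markers of the cells known to carry GARP were not all in step with Lrrc32. Summed regulatory T cell markers lay between 74.4 and 92.99 CPM in EoE33 and between 19.33 and 24.89 CPM in wild type, with 3 of 4 higher. Most of that sum was Ikzf2, and Il2ra, a receptor chain gene of these cells, did not pass. Summed platelet and megakaryocyte markers lay between 746.8 and 1796 CPM in EoE33 and between 24.04 and 53.2 CPM in wild type, but Ppbp, which encodes a neutrophil-attracting chemokine, held 1232 ± 432 CPM of this in EoE33 and 8.12 ± 4.95 CPM in wild type (SD, n = 4 each). Of the 4 tested platelet markers 2 rose and 1 fell. Summed endothelial markers overlapped, at 229.7 to 262.5 CPM in EoE33 and 217.2 to 320.3 CPM in wild type. Of the 6 endothelial markers 1 was higher and 3 lower, beside 31.3% higher and 32.1% lower among all tested genes. No marker of these 3 lists was at 0 counts over all libraries, and the part of these cells in the Lrrc32 level was not tested.

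The list of EMSY partners held rises and falls. Of 14 tested genes 7 rose, 2 fell and 5 did not pass, beside 31.3% higher and 32.1% lower among all tested genes. The median log2 fold change was 0.18. Brca2, the DNA repair gene whose product EMSY binds, rose 2.66-fold, and Cbx3, a heterochromatin protein gene, rose 1.36-fold. Zmynd11, a chromatin reader gene whose product also binds EMSY, was 1.31-fold lower, and the other gene that fell was Ogt.

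Ankrd27 had the tightest replicates and the smallest p-value of the risk genes. The gene (ENSMUSG00000034867) lies on chromosome 7 from 35586244 to 35639226 in GRCm38, far from Lrrc32 and Emsy. It was at 41.7, 41.7, 44.1 and 44.3 CPM in the EoE33 libraries and 79.6, 77.2, 77.8 and 74.1 CPM in the wild type libraries. Its coefficient of variation was 3.3% in EoE33 and 3% in wild type, and no library came near the other group. It was 1.8-fold lower (log2 fold change −0.84, standard error 0.054, 95% interval −0.97 to −0.72, edgeR adjusted p = 2.57e-06).

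The sequence just upstream of Ankrd27, the gene with the largest fall, is chr7:35585997-35586225 on the plus strand in GRCm38.p6, from RefSeq, 5′ to 3′, with the GC box in capitals.
Ankrd27: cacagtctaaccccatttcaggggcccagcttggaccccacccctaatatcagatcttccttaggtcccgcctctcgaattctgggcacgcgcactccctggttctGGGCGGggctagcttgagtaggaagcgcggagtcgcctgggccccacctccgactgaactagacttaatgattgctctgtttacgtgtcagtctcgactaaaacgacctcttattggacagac
The stretch of 229 bases holds 1 GC box, against 3 in the shorter Crlf2 stretch. The GC content of the whole window was 58% for Ankrd27 and 71.7% for Crlf2, beside a median of 52.7% over all windows.

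Partners of its protein did not fall as a group. Of 13 tested genes 3 rose, 3 fell and 7 did not pass, beside 31.3% higher and 32.1% lower among all tested genes. The median log2 fold change was 0.01. Rab32, a small GTPase that ANKRD27 binds, rose 2.85-fold (34.6 ± 3.4 CPM in EoE33 and 12.1 ± 0.66 CPM in wild type, SD, n = 4 each), and the others that rose were Vamp7 and Vps29. Golga4, a golgin gene, and Snx27, a sorting nexin gene, were 1.69-fold and 1.3-fold lower, and the third that fell was Kif5a.

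Clec16a was lower in all EoE33 libraries. The gene (ENSMUSG00000068663) lies on chromosome 16 from 10545339 to 10744878 in GRCm38. It was at 43.1, 37.2, 37.9 and 48.7 CPM in EoE33 and 61.7, 60.7, 61.4 and 54.1 CPM in wild type. Within wild type, replicate 4 stood below 3 libraries that were nearly equal, and the groups still did not overlap. It was 1.43-fold lower (log2 fold change −0.51, standard error 0.095, 95% interval −0.73 to −0.3, edgeR adjusted p = 0.00126). Rnf41, which encodes the ubiquitin ligase that CLEC16A binds, rose 1.23-fold. Of 14 tested endolysosome and mitophagy genes 2 rose, 6 fell and 6 did not pass, with a median log2 fold change of −0.09. The shares over all tested genes were 31.3% higher and 32.1% lower. Pink1, a kinase gene of mitophagy, was 2.45-fold lower, and Tfeb, a transcription factor gene of lysosome formation, was 2.98-fold lower.

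Synpo fell with more spread than Ankrd27 and Clec16a. The gene (ENSMUSG00000043079) lies on chromosome 18 from 60593973 to 60660142 in GRCm38. It was at 47.8, 81.4, 67.6 and 66.9 CPM in EoE33 and 108.9, 108, 84.1 and 118.9 CPM in wild type. The highest EoE33 library, at 81.4 CPM, came close to the lowest wild type library, at 84.1 CPM. It was 1.59-fold lower (log2 fold change −0.67, standard error 0.162, 95% interval −1.04 to −0.3, edgeR adjusted p = 0.00587).

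Relatives and partners of synaptopodin moved both ways. Of 14 tested genes 6 rose, 7 fell and 1 did not pass, beside 31.3% higher and 32.1% lower among all tested genes. The median log2 fold change was −0.13. Synpo2l and Synpo2, paralogs found in striated and smooth muscle, were 2.89-fold and 2.56-fold lower, and Actn3, the alpha-actinin of fast skeletal muscle, was 4.02-fold lower. Actn4, a non-muscle alpha-actinin that synaptopodin binds, was at 720.4 ± 14 CPM in EoE33 and 386.2 ± 7.73 CPM in wild type (SD, n = 4 each), a 1.87-fold rise.

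Muscle transcripts moved with the 3 risk genes that fell. Summed skeletal muscle markers lay between 7362 and 9895 CPM in EoE33 and between 27741 and 30175 CPM in wild type, 3.6-fold lower by the ratio of means, with 9 of 9 lower and none at 0. Summed smooth muscle markers overlapped, at 1159 to 1353 CPM in EoE33 and 1040 to 3960 CPM in wild type. The 1040 CPM was in wild type replicate 3, and the next lowest wild type library was at 2100 CPM. Of the 6 smooth muscle markers 3 were lower and 0 higher, beside 32.1% lower and 31.3% higher among all tested genes. Fibroblast markers lay between 1932 and 2866 CPM in EoE33 and between 3599 and 4395 CPM in wild type, with 5 of 6 lower. The falls of Ankrd27, Synpo and Clec16a, by 1.8-fold, 1.59-fold and 1.43-fold, were smaller than that of the muscle markers. Since the muscle level separated the groups completely, the muscle content and the genotype cannot be told apart: with the muscle level as a further term of the edgeR fit, 1 gene of the whole table was called and none of the risk genes.

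Xkr6 was the least abundant risk gene by length and rose. The gene (ENSMUSG00000035067, chromosome 14 from 63606503 to 63820809 in GRCm38) had 54, 42, 56 and 38 counts in EoE33 and 33, 22, 25 and 31 counts in wild type. That is 2.58, 2.46, 2.41 and 1.9 CPM in EoE33 and 1.4, 0.965, 1.06 and 1.33 CPM in wild type, without overlap. It was 1.96-fold higher (log2 fold change 0.97, standard error 0.2, 95% interval 0.52 to 1.42, edgeR adjusted p = 0.00225). An antisense gene, Gm15918, shares 326 exon bases with it and had 0 counts in all libraries.

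The other XK-related genes did not follow. Of 7 tested genes of the family and its partners 1 rose, 4 fell and 2 did not pass, with a median log2 fold change of −0.4. The shares over all tested genes were 31.3% higher and 32.1% lower. A further 4 listed genes had too few counts to test. Xkrx was 15.7-fold lower, at −3.97 on the log2 scale and −4.70 without EoE33 replicate 1. Ano6, a scramblase gene of another family, was 1.32-fold lower. Xk passed narrowly (edgeR adjusted p = 0.0367) and kept its call on leaving out 1 library only for EoE33 replicate 2 or wild type replicate 3. Xkr8, a scramblase gene of dying cells, passed at 0.045 and, with 1 library left out, kept its call only without EoE33 replicate 1. It did not pass with DESeq2 (adjusted p = 0.0642) or with edgeR on library size alone (0.0521), so its call depends on the method and the scaling. Bsg, the basigin gene whose product escorts XKR8 to the membrane, was the gene that rose, 1.65-fold.

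**Figure D4:**
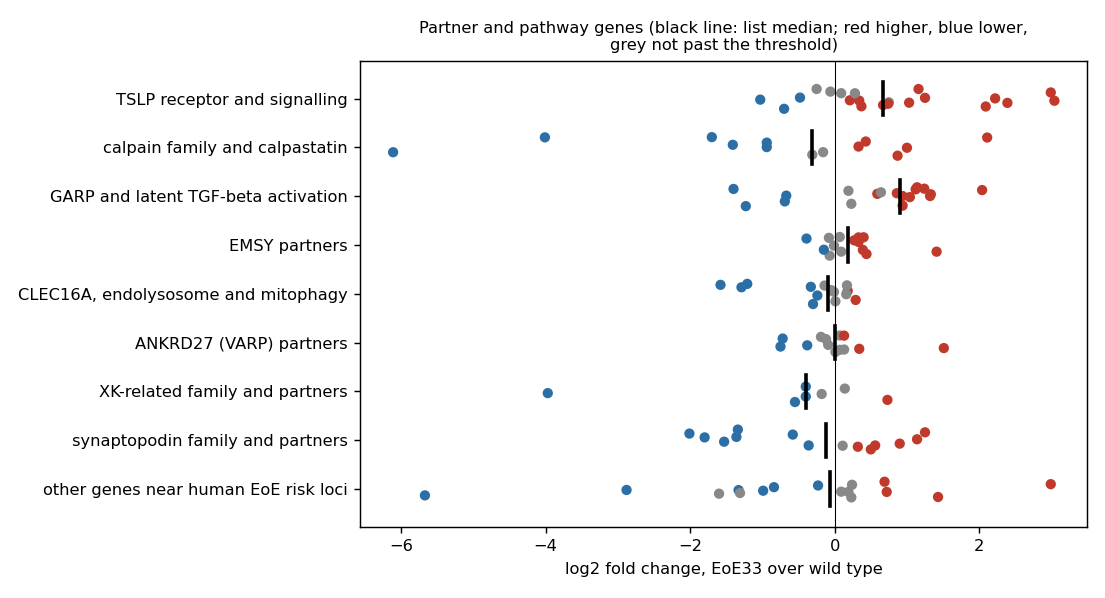
Log2 fold change, EoE33 over wild type, of each tested gene of the 9 partner and pathway lists, with a black line at each list's median. Medians run from −0.4 for the XK-related list to 0.9 for the GARP and latent TGF-beta list, and each list holds genes that rose and genes that fell.

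Per length of merged exons, levels in EoE33 ran from Crlf2 at 9.12 ± 0.93 through Ankrd27 at 7.09 ± 0.23, Synpo at 6.92 ± 1.45, Clec16a at 4.99 ± 0.64, Lrrc32 at 3.41 ± 0.64, Emsy at 1.86 ± 0.2 and Tslp at 0.684 ± 0.17 to Xkr6 at 0.322 ± 0.041 CPM per kb (SD, n = 4 each). In wild type the order was Ankrd27 at 12.7 ± 0.38, Synpo at 11 ± 1.55, Clec16a at 7.11 ± 0.43, Crlf2 at 4.09 ± 0.59, Lrrc32 at 2.17 ± 0.28, Emsy at 1.83 ± 0.06, Tslp at 0.627 ± 0.17 and Xkr6 at 0.163 ± 0.029 CPM per kb (SD, n = 4 each). In EoE33 the lowest Crlf2 library, at 8.29 CPM per kb, was above the highest for Ankrd27, at 7.31, but below the highest for Synpo, at 8.54. Neighbours in these orders whose ranges overlapped were Ankrd27 and Synpo in both groups and Synpo and Clec16a in EoE33, so those places are not resolved. With the longest transcript as length, Emsy, at 4.17 ± 0.45 CPM per kb in EoE33 and 4.1 ± 0.14 CPM per kb in wild type, came above Lrrc32 in both groups, and Synpo came first in both. Crlf2, at 9.7 ± 0.99 CPM per kb in EoE33, then came below Synpo at 12.8 ± 2.68 and Ankrd27 at 10 ± 0.33 (SD, n = 4 each). These places, taken by means, depend on the length chosen. With that length the ranges of Emsy and Lrrc32 overlapped in EoE33 but not in wild type. Those of Synpo and Ankrd27 overlapped in both groups, Crlf2 overlapped both in EoE33, and Crlf2 overlapped Emsy in wild type. The overlapping places are not resolved.

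Within 250 kb of the 8 genes the mouse annotation holds 53 other protein-coding genes, of which 40 were tested, and 15 rose, 12 fell and 13 did not pass. That is near the 31.3% higher and 32.1% lower among all tested genes. Next to Tslp, Wdr36, a ribosome biogenesis gene often named with the human locus, lay 17.4 kb away. It was at 50.4 ± 4.25 CPM in EoE33 and 42.6 ± 4.79 CPM in wild type (SD, n = 4 each) and did not pass (log2 fold change 0.24, edgeR adjusted p = 0.0521). It did pass without EoE33 replicate 4 (edgeR adjusted p = 0.0436) or wild type replicate 2 (0.0442), with DESeq2 (0.043) and under other settings, so it lies at the threshold. Gypc, which adjoins Tslp on the other side but lies 255.3 kb away and so outside the counted neighbours, was 1.98-fold lower. Camk4, a calcium-dependent kinase gene 115.1 kb from Tslp, was at 2.67, 2.86, 3.49 and 3.49 CPM in EoE33 and 1.06, 1.14, 1.18 and 1.24 CPM in wild type, a 2.7-fold rise.

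Around Clec16a genes changed in both directions. Socs1, the cytokine signalling inhibitor 37.4 kb to its right, was at 12.6, 13.2, 19.2 and 18.6 CPM in EoE33 and 2.16, 2.02, 1.9 and 1.88 CPM in wild type. All EoE33 libraries lay far above the wild type ones, in the direction opposite to Clec16a. Dexi, 2.3 kb to its left, was 1.78-fold lower. Ciita, the activator of MHC class II genes, lay 16.9 kb away and rose 1.61-fold (edgeR adjusted p = 0.0147), with overlapping groups, and did not pass without wild type replicates 1 and 3 (0.124). Further off, Rmi2, a DNA repair gene, and Litaf, an endosomal protein gene, rose 6.28-fold and 2.23-fold.

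The genes that adjoin Ankrd27 both fell. Rgs9bp, 0.7 kb to the left, had 102 counts over the EoE33 libraries and 857 over the wild type libraries and was 7.34-fold lower. Pdcd5, 2.8 kb to the right, was 1.18-fold lower (edgeR adjusted p = 0.0133), a call that was lost without wild type replicates 1 and 3 (0.0588). Thap12, on the other side of Emsy from Lrrc32, was 1.63-fold lower. Next to Synpo, Myoz3, a sarcomere gene, was 4.43-fold lower, while Smim3, 92 kb away, rose 6.7-fold. Ndst1 on the other side, a heparan sulfate synthesis gene, did not pass (log2 fold change 0.18, edgeR adjusted p = 0.0512). It did pass without EoE33 replicate 3 (edgeR adjusted p = 0.0235) or wild type replicate 2 (0.037), with DESeq2 (0.0301) and under other scalings. Mtmr9 and Pinx1, which adjoin Xkr6, did not pass (log2 fold changes of −0.04 and 0.2), nor did 5430403G16Rik next to Crlf2 (−0.27).

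**Figure D5:**
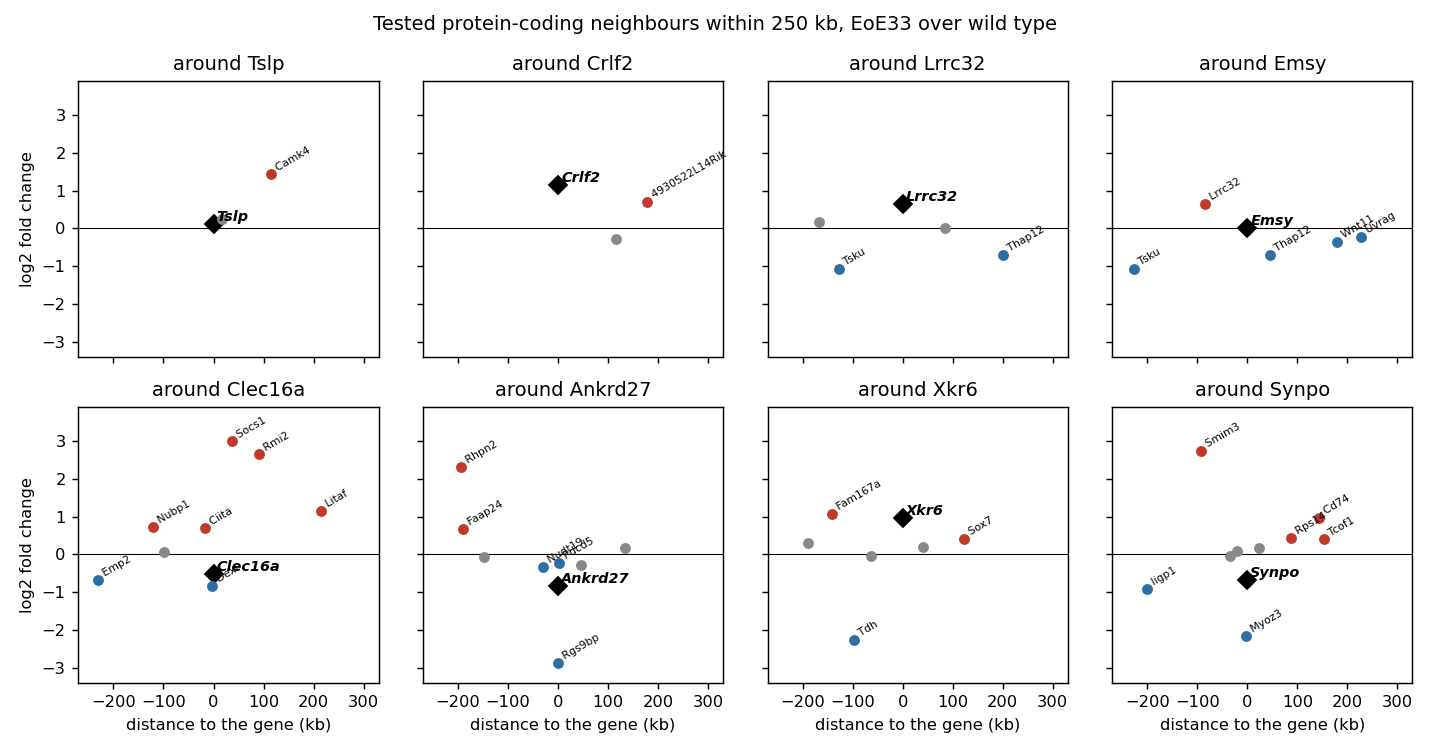
Log2 fold change, EoE33 over wild type, of the risk gene (black diamond) and of tested protein-coding neighbours within 250 kb, by distance in kb from the gene (negative to the left), red for higher, blue for lower and grey for not past the threshold. Socs1 at 2.99 and Dexi at −0.84 flank Clec16a at −0.51, and Rgs9bp at −2.88 adjoins Ankrd27 at −0.84.

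A list of other genes near human risk loci of the disease also moved both ways. This list is not separate from the neighbours above: Wdr36, Camk4, Pdcd5, Rgs9bp, Dexi, Ciita and Socs1 are counted in both. Of 16 tested genes 4 rose, 6 fell and 6 did not pass, beside 31.3% higher and 32.1% lower among all tested genes. The median log2 fold change was −0.07. Klf13, a transcription factor gene, rose 1.65-fold and Smad3, which carries TGF-beta signals, was 2.51-fold lower. Stat6, the transcription factor gene of IL-4 and IL-13 signalling, did not pass (165.9 ± 10.6 CPM in EoE33 and 155.5 ± 6.22 CPM in wild type, SD, n = 4 each; edgeR adjusted p = 0.241).

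For each risk gene that passed, the most similar profiles were found as the smallest root mean square difference of log2 CPM over the 8 libraries, each profile centred on its wild type mean. Crlf2 was nearest to Dnajb11, Parp14 and Tnfrsf1b (0.083, 0.089 and 0.094), Lrrc32 to Chsy1, Fndc3b and Sema5a (0.085, 0.104 and 0.104), and Xkr6 to Tap1, Reep6 and Erap1 (0.117, 0.133 and 0.134). Ankrd27 was nearest to Mtln, Selenow and Sipa1l1 (0.059, 0.059 and 0.062), Clec16a to Tmem63b, 2500002B13Rik and Ube3b (0.051, 0.062 and 0.063), and Synpo to Fbn2, Fam124a and Pdlim7 (0.09, 0.106 and 0.107). With 8 libraries in 2 groups these distances mostly measure a like difference between the groups.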

How the data were processed

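The authors deposited raw counts per gene for 49315 Ensembl identifiers in 8 libraries. The table's own column names carry no mouse, and columns were matched through the letter in each sample's description. Libraries were polyA-selected and read in paired-end mode, per the labels' protocols. The submitters' processing notes name Trimmomatic 0.36, STAR 2.5.2b, featureCounts, Subread 1.5.2 and GRCm38 but not their roles. Annotation release and strand use are not given there, so reads of overlapping antisense genes cannot be told apart. GENCODE M21 gave symbols and coordinates for 49056 identifiers. No 150-base window of the risk genes' longest transcripts recurs in another gene.

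Genes were filtered with filterByExpr, scaled by TMM and fitted with edgeR 4.0.16 (glmQLFit, robust = TRUE) in R 4.3.3 on genotype alone, with p-values adjusted by Benjamini-Hochberg over 16760 genes. Standard errors came from the F statistic. The fit was tested on simulated data. Libraries within a group differed beyond sampling noise (chi-square over degrees of freedom 10.38 to 70.1). A floor of 3 counts is 0.125 to 0.169 CPM, for counting error only. The labels give no batch.

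The members and gene lists were chosen with earlier results of these data known. Named are the risk genes, the 3 smallest adjusted p-values of each list, adjoining genes, the 5 neighbours with the smallest p and the 3 nearest profiles with a mean of at least 1 CPM. Il7r, Jak1, Jak2, Stat5a, Stat5b, Ccl22, Capns1, Capn1, Foxp3, Tgfb1, Ciita, Camk4, Ehd3, Stat6, Ppbp, Xk, Xkr8, Rnf41, Synpo2 and genes that account for a small count were picked after their values were seen. The result of 1 gene that the rule names is not reported here. Alternatives were other scalings and filters, DESeq2 1.42.0, limma-voom 3.58.1, robust = FALSE, a threshold of 0.01, a replicate or muscle term, and left-out libraries.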

Additional observations from a re-analysis of the deposited data

Results flagged for a closer look

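Among the named genes and the summed marker lists, 10 values stood apart from the other 3 libraries of their group by Dixon's ratio at its 95% critical value. Chance flags about 1 in 20 groups of 4, and 202 groups were examined. Clec16a was at 54.1 CPM in wild type replicate 4 and between 60.7 and 61.7 CPM in the other wild type libraries. Wdr36 was at 35.5 CPM and Ehd3 at 8.51 CPM in the same library, against 44.2 to 45.5 CPM and 6.46 to 6.74 CPM in the others of its group. Rab32 was at 39.7 CPM in EoE33 replicate 2 and between 32.4 and 33.6 CPM in the other EoE33 libraries. Snx27 was at 42.3 CPM in EoE33 replicate 1 and between 46.8 and 47.4 CPM in the others. Capn9 was at 0.05 CPM, 1 count, in EoE33 replicate 4 and at 0 in the others. Summed skeletal muscle markers were at 9895 CPM in EoE33 replicate 4 and between 7362 and 7731 CPM in the other EoE33 libraries. Summed T cell markers were at 9.11 CPM in wild type replicate 4 and between 1.84 and 2.45 CPM in the other wild type libraries. Summed club cell markers were at 431.4 CPM in wild type replicate 3 and between 5.69 and 6.36 CPM in the others, and summed liver markers at 140.1 CPM in wild type replicate 1 and between 4.36 and 10.69 CPM in the others.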

How the results depend on the processing

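Under 20 alternatives, Crlf2, Xkr6 and Lrrc32 stayed higher and Ankrd27, Synpo and Clec16a lower, all past the threshold. Those are the other scalings, DESeq2, limma-voom, robust = FALSE, both other filters, the replicate block, the threshold of 0.01, each library left out in turn and wild type replicates 1 and 3 left out together. Leaving out 1 library gave 9705 to 10467 calls, 4825 to 5160 higher and 4880 to 5333 lower, with 3 risk genes higher and 3 lower each time. Their log2 fold changes then ranged from 1.09 to 1.23 (Crlf2), 0.9 to 1.06 (Xkr6), 0.56 to 0.73 (Lrrc32), −0.87 to −0.83 (Ankrd27), −0.79 to −0.54 (Synpo) and −0.59 to −0.46 (Clec16a). Tslp ranged from −0.06 to 0.32 and Emsy from −0.03 to 0.09, and without wild type replicates 1 and 3 they were −0.1 and −0.02, so neither has a settled sign. Scaling by library size without the counts of Chil4 moved the median log2 fold change of all genes to 0.089, against −0.014 with TMM, and turned Mtmr9 to 0.06. Stat5a and Pdcd5 did not pass under it (edgeR adjusted p = 0.0576 and 0.172), while Stat6, Wdr36 and Ndst1 did (0.0112, 0.01 and 0.00275).

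The skeletal muscle level separated the groups, so with it as a further term muscle level and genotype cannot be told apart. The calls fell to 1 gene, 1 higher and 0 lower, with 0 risk genes higher, 0 lower and 0 calls in the lists and neighbours. Log2 fold changes of the risk genes, with wide standard errors, became 0.36 (Crlf2, standard error 0.93), −0.68 (Lrrc32, 1.09), −0.85 (Xkr6, 1.39), −0.52 (Ankrd27, 0.4), −0.22 (Synpo, 1.3), 0.85 (Clec16a, 0.54), −2.45 (Tslp, 1.97) and −0.11 (Emsy, 0.65). Of 85 named genes in that fit, risk genes included, 53 kept their sign but lost their call and 27 changed sign. The other 5 kept both sign and call status. Outside the risk genes the values that changed sign were Capn3 0.67, Brca2 −1.34, Cbx3 −0.17, Tfeb 0.2, Wdr36 −0.06, Pinx1 −0.77, Myoz3 0.1, Chsy1 −0.97, Fndc3b −0.76, Sema5a −0.67, Tmem63b 0.39, 2500002B13Rik 0.92, Ube3b 0.3, Reep6 −1.46, Erap1 −0.15, Jak2 −0.36, Stat5a 0.64, Ccl22 −1.06, Capn1 1.04, Tgfb1 −0.36, Ciita −0.21, Rnf41 −0.46.

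The replicate numbers are not stated to pair the mice. Deviations of same-numbered libraries correlated by 0.163, −0.405, 0.112 and −0.317, and these values cannot settle whether the numbers pair them. With the number as a replicate block 10056 genes passed, and the same 6 risk genes were called (highest edgeR adjusted p 0.0224, for Lrrc32), while Xk (0.0583) and Xkr8 (0.0682) were not and Wdr36 was (0.0265). Xk and Xkr8 had adjusted p-values up to 0.0912 and 0.117 without 1 library. Xkr8 also did not pass with DESeq2 size factors (0.0507), with no filter on low counts (0.158) or without the counts of Chil4 (0.134), the last of which Xk did not pass either (0.0911). Wdr36 passed with DESeq2 size factors (0.0481) and with no filter (0.0419). Depth limits Tslp most, which had the fewest counts of the risk genes.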
